A study of Mus musculus with 30 samples.

Results

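Transcripts of 5 genes of the red cell lineage, *Hba-a1*, *Hba-a2*, *Hbb-bs*, *Hbb-bt* and *Alas2*, were followed through the left ventricles of 30 male C57BL6J mice. They are 5 of the 49671 genes with a row in the peptide table and of the 55263 genes to which the antibody table was summed, and all 5 passed the filter on low counts in both tables, where 11985 and 12274 genes were tested. In the peptide study, 7 mice were given Aβ42, the 42-residue amyloid beta peptide, and 7 mice were given ScrAβ42, a peptide of scrambled sequence, by i.p. injection every day for 4 weeks from about 12 weeks of age. The daily injection was 1 µg by the methods and 1 mg by the sample labels, and this was not resolved. In the antibody study, 8 mice received 3D6, an antibody that neutralises amyloid beta, and 8 mice received Control antibody, an IgG2a isotype antibody, at 0.75 mg/kg once a week. By the methods both antibody groups ate a high-fat diet. The design text of the series instead has them receiving Aβ42, and neither account could be checked here. The genes were chosen by their known role in red cells and with their heart by heart levels, the ratios among them and both treatment comparisons already in view, so those values are given as a description and without a test.

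Hemoglobin, the oxygen carrier of red cells, is a tetramer of alpha and beta globin chains that each hold a haem group. In adult mice the alpha chains are made from *Hba-a1* and *Hba-a2* on chromosome 11 and the beta chains from *Hbb-bs* and *Hbb-bt* on chromosome 7, while *Alas2*, on the X chromosome, encodes the erythroid form of 5-aminolevulinate synthase, which catalyses the first step of haem synthesis in developing red cells. Mature mouse red cells have no nucleus, and reticulocytes, which have just lost theirs, carry globin mRNA in the blood for a short time. In RNA from a piece of ventricle, fewer cells of a type and less RNA per cell cannot be told apart.

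The globin genes come as pairs of near copies, which bears on how their reads were assigned. Positions here are of GRCm38. *Hba-a1* spans chr11:32283511-32284465 and *Hba-a2* chr11:32296489-32297298, both on the plus strand, and *Hbb-bs* spans chr7:103826534-103828096 and *Hbb-bt* chr7:103812524-103813996, both on the minus strand. *Alas2* spans chrX:150547375-150570638 on the plus strand. Over the 426 coding bases of each alpha gene there is 1 difference, C381T, and over the 441 coding bases of each beta gene there is likewise 1, C417T, with positions counted from 1 at the first base of the start codon and the base of *Hba-a1* or *Hbb-bs* given first. Both fall in coding exon 3, and these exons are shown because they hold the single coding base that tells each pair apart, in capitals. The alpha exons lie at chr11:32284263-32284388 and chr11:32297080-32297205, the beta exons at chr7:103826668-103826793 and chr7:103812659-103812784, and the sequences come from the GENCODE vM21 transcripts, 5′ to 3′ on the coding strand.

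Hba-a1: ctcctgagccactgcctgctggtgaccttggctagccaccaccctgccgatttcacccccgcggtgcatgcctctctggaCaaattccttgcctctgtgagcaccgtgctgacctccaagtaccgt
Hba-a2: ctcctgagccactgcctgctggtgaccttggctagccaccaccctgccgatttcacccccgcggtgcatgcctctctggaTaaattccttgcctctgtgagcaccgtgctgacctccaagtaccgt
Hbb-bs: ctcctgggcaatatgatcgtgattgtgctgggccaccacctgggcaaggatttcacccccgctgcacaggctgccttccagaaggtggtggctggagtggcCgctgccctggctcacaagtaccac
Hbb-bt: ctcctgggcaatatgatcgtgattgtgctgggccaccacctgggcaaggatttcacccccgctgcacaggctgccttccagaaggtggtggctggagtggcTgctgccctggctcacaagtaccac

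Of the 31-base runs in the main *Hba-a1* transcript, 71.3% also occur in that of *Hba-a2*, and 91.0% of those of *Hba-a2* occur in *Hba-a1*. For *Hbb-bs* and *Hbb-bt* the shares were 66.9% and 59.4%, and *Hba-a1* and *Hbb-bs* shared 0 runs. The split of counts within each pair is therefore an estimate of the mapping program, and the sum of a pair is the firmer value.

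The members moved together from heart to heart, and their promoters are shown beside that observation, without a claim that the sequence accounts for it. Each window runs from 250 bases before to 50 bases after the RefSeq start on GRCm38.p6. Capitals mark every match, on either strand, to 4 motifs of 5 letters searched by a script, which are TATAA (the TATA box), the CCAAT box, the CACCC box and GATAA (core letters of the site bound by erythroid transcription factors of that family).

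Hba-a1, chr11:32283422-32283721, plus strand: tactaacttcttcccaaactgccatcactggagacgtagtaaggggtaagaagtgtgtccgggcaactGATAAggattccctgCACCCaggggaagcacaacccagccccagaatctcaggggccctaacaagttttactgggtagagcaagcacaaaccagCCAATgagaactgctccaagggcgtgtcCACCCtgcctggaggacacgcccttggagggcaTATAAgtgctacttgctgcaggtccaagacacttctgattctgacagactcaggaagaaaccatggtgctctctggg
Hbb-bs, chr7:103827879-103828178, minus strand: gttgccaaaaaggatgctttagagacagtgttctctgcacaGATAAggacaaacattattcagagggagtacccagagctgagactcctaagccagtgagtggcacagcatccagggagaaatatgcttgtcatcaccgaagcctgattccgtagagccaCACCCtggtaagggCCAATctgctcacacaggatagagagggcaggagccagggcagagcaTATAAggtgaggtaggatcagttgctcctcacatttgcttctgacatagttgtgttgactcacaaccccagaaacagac
Hbb-bt, chr7:103813874-103814173, minus strand: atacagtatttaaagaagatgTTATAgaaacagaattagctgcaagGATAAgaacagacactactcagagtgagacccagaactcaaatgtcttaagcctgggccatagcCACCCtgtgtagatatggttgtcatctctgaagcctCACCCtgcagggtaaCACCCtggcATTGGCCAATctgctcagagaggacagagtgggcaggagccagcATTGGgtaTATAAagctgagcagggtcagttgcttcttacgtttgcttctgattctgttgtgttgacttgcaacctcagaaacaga
Alas2, chrX:150547167-150547466, plus strand: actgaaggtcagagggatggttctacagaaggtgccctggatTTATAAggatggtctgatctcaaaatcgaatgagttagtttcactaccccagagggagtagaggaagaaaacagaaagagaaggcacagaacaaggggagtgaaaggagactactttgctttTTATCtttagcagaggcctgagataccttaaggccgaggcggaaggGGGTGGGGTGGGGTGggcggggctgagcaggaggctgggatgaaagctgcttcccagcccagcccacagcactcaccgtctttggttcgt

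The window of *Hba-a2*, chr11:32296242-32296541, is not printed because 297 of its 300 bases are one unbroken run shared with that of *Hba-a1*. A TATAA match lay 27 to 30 bases before the start in each of the 4 globin windows. Each globin window also held CCAAT, the CACCC box and then GATAA at least once, and the *Alas2* window held GATAA once, CACCC 3 times and no CCAAT. These letters are common, since 24.9% of all 32851 promoter windows of the same length hold TATAA, 37.4% CCAAT, 57.5% CACCC and 25.4% GATAA. A match is a description of the letters and not of a bound site.

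Libraries held 4478991 to 6015767 counts per heart in the peptide study and 6397189 to 8310480 in the antibody study, and levels are given as CPM, counts scaled to a common library size, after TMM normalisation within each study. The 8 cardiomyocyte markers, *Myh6* and *Tnnt2* among them, were tested in both studies and summed to between 43796 and 91320 CPM in every heart. Atrial markers, *Sln* and *Myl7* among them, summed to 3.81 to 3652 CPM with ScrAβ42 and 12.3 to 8388 CPM with Aβ42. They summed to 0.819 to 2768 CPM with Control antibody and 1.05 to 666 CPM with 3D6. Hearts therefore differed in the summed level of these markers, and the source of that RNA was not tested. Within groups the log2 of that sum had a correlation of 0.26 with log2 summed globin over the 14 peptide hearts and of 0.018 over the 16 antibody hearts. The closest pair of hearts in any group differed by 3.50 times the variance that sampling alone gives, so no library was counted as a copy of another.

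In the peptide study the 5 transcripts differed 17.5-fold to 21.3-fold between the lowest and highest ScrAβ42 heart and 8.38-fold to 10.8-fold between the lowest and highest Aβ42 heart. *Hbb-bs*, the beta globin gene with the higher level per length, lay at 429, 1840 and 9021 CPM for the lowest, median and highest ScrAβ42 heart, and at 329, 846 and 2760 CPM for the lowest, median and highest Aβ42 heart. Its highest 3 values belonged to mice ScrAβ42_3448, ScrAβ42_3449 and ScrAβ42_3447, all above every Aβ42 heart, while the other 4 ScrAβ42 hearts lay within the range of the Aβ42 hearts. *Hbb-bt*, its near copy, lay at 82.9, 383 and 1768 CPM with ScrAβ42 and at 47.8, 149 and 517 CPM with Aβ42. *Hba-a1* lay at 135, 497 and 2376 CPM with ScrAβ42 and at 81.3, 260 and 862 CPM with Aβ42. *Hba-a2* lay at 92.4, 337 and 1616 CPM with ScrAβ42 and at 62.2, 172 and 573 CPM with Aβ42. The alpha genes repeated the order of the beta genes at the top, with the same 3 mice in the same order. *Alas2*, the haem synthesis enzyme, lay at 55.2, 248 and 1108 CPM with ScrAβ42 and at 33.5, 86.2 and 343 CPM with Aβ42. The groups overlapped for each of the 5 genes, and in each the highest Aβ42 heart was mouse Aβ42_3456 and the lowest mouse Aβ42_3451. The 5 genes took from 0.0534% of all counts, in mouse Aβ42_3451, to 1.77%, in mouse ScrAβ42_3448.

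**Figure D1:**
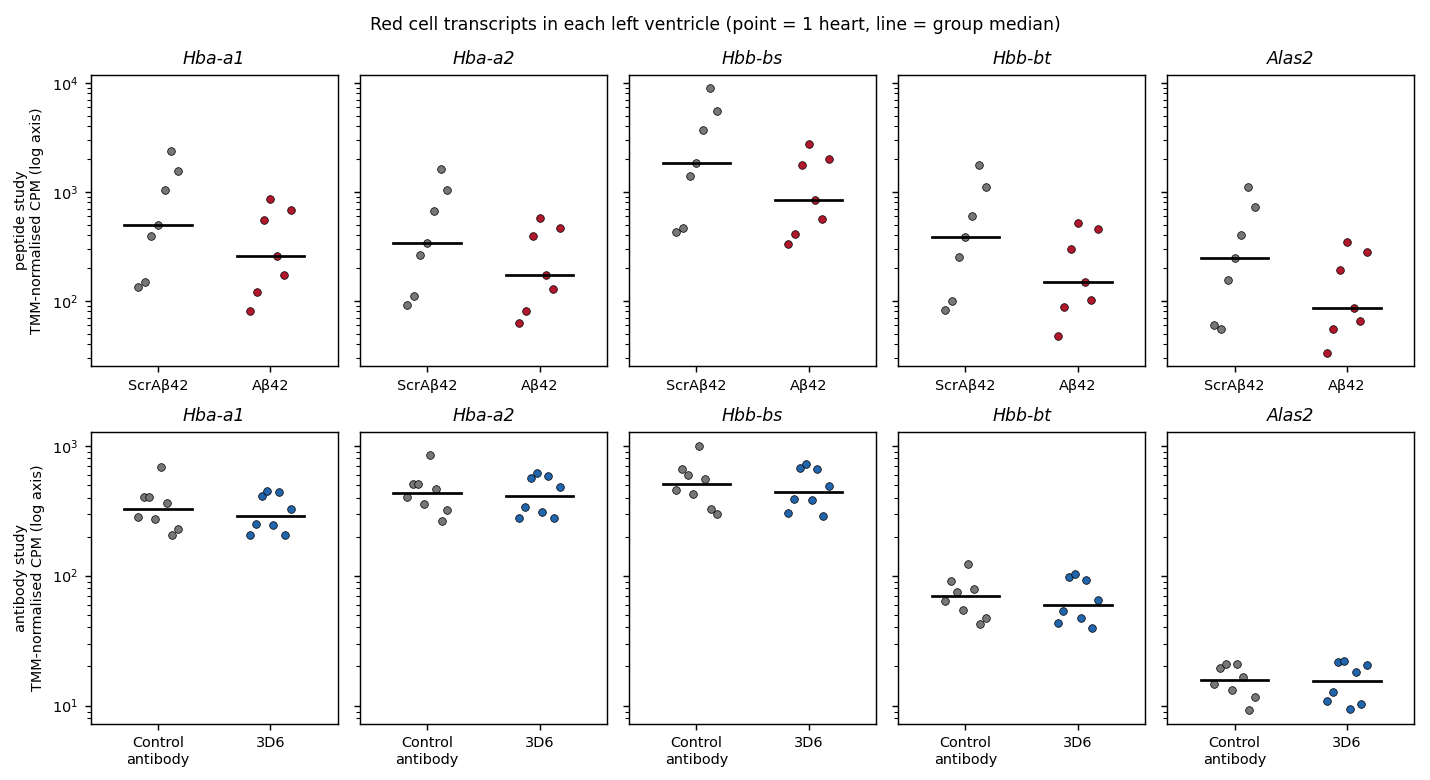
TMM-normalised CPM (log axis) of each red cell transcript in each left ventricle, by group, with the peptide study above and the antibody study below; a point is 1 heart and the line the group median. Peptide hearts spread from 329 to 9021 CPM for Hbb-bs and antibody hearts from 289 to 1005 CPM, and the groups overlap in every panel.

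The heart to heart spread ranked near the top of the whole transcriptome. The SD of log2 CPM within groups was 1.47 for *Hbb-bs*, 1.49 for *Hbb-bt*, 1.47 for *Hba-a1*, 1.43 for *Hba-a2* and 1.48 for *Alas2*, against a median of 0.23 over the 11985 genes tested. Between 99.1% and 99.3% of genes had a smaller SD. From the lowest to the highest of the 14 hearts, *Hbb-bt* differed 37.0-fold, *Alas2* 33.1-fold, *Hba-a1* 29.2-fold, *Hbb-bs* 27.4-fold and *Hba-a2* 26.0-fold.

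With group means subtracted, the log2 CPM of any pair of the 5 genes had a correlation of at least 0.993 over the 14 peptide hearts, and the highest was 0.999 for *Hba-a1* with *Hba-a2*. These points share a library and its depth, and the paralogs share reads, so the values are a description. Whether *Alas2* shares runs of bases with the globins was not measured, and its correlation with *Hbb-bt* was 0.998.

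In the antibody study the same transcripts were far more even. *Hbb-bs* lay at 300.2, 505 and 1005 CPM for the lowest, median and highest Control antibody heart, and at 289, 439 and 731 CPM for the lowest, median and highest 3D6 heart. *Hbb-bt* lay at 42.5, 69.3 and 124 CPM with Control antibody and at 39.7, 59.0 and 103 CPM with 3D6. For both beta genes the highest heart was Control antibody mouse 22, followed by 3D6 mouse 20. *Hba-a1* lay at 207, 323 and 691 CPM with Control antibody and at 204, 288 and 453 CPM with 3D6. *Hba-a2* lay at 263, 434 and 844 CPM with Control antibody and at 279, 411 and 618 CPM with 3D6. Mouse 22 was above every other heart for both alpha genes too, and the other 7 Control antibody hearts overlapped the 3D6 hearts. *Alas2* lay at 9.18, 15.6 and 20.9 CPM with Control antibody and at 9.41, 15.4 and 22.2 CPM with 3D6, on 59 to 158 counts per heart. For *Alas2* the 3D6 mice 20 and 17 were highest, and mouse 22 did not stand above the others.

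The SD of log2 CPM within groups in the antibody study was 0.47 for *Alas2* and 0.51 to 0.55 for the globins, against a median of 0.28 over 12274 genes, and 86.3% to 92.2% of genes had a smaller SD. Correlations within groups over the 16 hearts were 0.976 to 0.990 among the 4 globins and 0.886 to 0.925 between *Alas2* and each globin. The 5 genes took 0.0752% to 0.295% of the counts.

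The first comparison of the design sets Aβ42 against ScrAβ42, and for these genes it is given as a description. The edgeR fit gave lower levels with Aβ42 for each member, with a standard error close to 0.66 on the log2 scale. The log2 fold change, Aβ42 against ScrAβ42, was -1.37 (SE 0.67) for *Hbb-bs*, -1.38 (SE 0.68) for *Hbb-bt*, -1.18 (SE 0.66) for *Hba-a1*, -1.14 (SE 0.65) for *Hba-a2* and -1.38 (SE 0.68) for *Alas2*, with 7 hearts per group. In linear terms the mean of *Hbb-bs* was 1241 ± 941 CPM (SD, n = 7) with Aβ42 and 3201 ± 3163 CPM (SD, n = 7) with ScrAβ42. For *Alas2* the means were 151 ± 123 CPM (SD, n = 7) and 393 ± 392 CPM (SD, n = 7). Without mouse ScrAβ42_3448 the differences shrank to between -0.64 for *Hba-a2* and -0.86 for *Alas2*, and without mouse Aβ42_3456 they grew to between -1.44 for *Hba-a2* and -1.73 for *Alas2*.

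Values for markers of other tissue stand beside this difference. All 5 atrial markers had a positive value with Aβ42, with a median log2 fold change of 2.31, and so had the 5 adipose markers tested, *Cidea* and *Adipoq* among them, with a median of 2.31. By edgeR's quasi-likelihood test 0 of either list were called, and 1 atrial and 3 adipose markers had an unadjusted p under 0.05, beside 6.51% of all genes. Adipose markers summed to 27.8 to 92.0 CPM with ScrAβ42 and 30.2 to 609 CPM with Aβ42, with a correlation of -0.0708 with summed globin within groups. A further fit held a covariate for the atrial marker score. In it the log2 fold changes were -1.25 for *Hba-a2*, -1.28 for *Hba-a1*, -1.45 for *Hbb-bt* and -1.46 for *Hbb-bs* and *Alas2*. Since the atrial markers also had higher values with Aβ42, this fit cannot separate them from the peptide. The part of the atrial and adipose markers in the globin values was not tested.

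The second comparison sets 3D6 against Control antibody, and here the differences were smaller than their standard errors. The log2 fold change, 3D6 against Control antibody, was -0.13 (SE 0.25) for *Hbb-bs*, -0.09 (SE 0.24) for *Hbb-bt*, -0.17 (SE 0.24) for *Hba-a1*, -0.09 (SE 0.23) for *Hba-a2* and -0.02 (SE 0.21) for *Alas2*, with 8 hearts per group. The mean of *Hbb-bs* was 491 ± 178 CPM (SD, n = 8) with 3D6 against 540 ± 226 CPM (SD, n = 8) with Control antibody. For *Alas2* the means were 15.7 ± 5.45 CPM (SD, n = 8) and 15.8 ± 4.39 CPM (SD, n = 8). Without Control antibody mouse 22 the sign turned for all 5, to between 0.04 for *Hba-a1* and 0.10 for *Hba-a2*, and *Alas2*, the value nearest to 0, also turned without any 1 of 6 other hearts.

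Marker lists of other cells lay on both sides of 0 with 3D6. The 4 platelet markers tested had a positive value, with a median log2 fold change of 0.32. All 8 endothelial markers, *Pecam1* and *Cdh5* among them, had a negative value, with a median of -0.18, and 7 of the 8 macrophage markers did, with a median of -0.16. By edgeR's quasi-likelihood test 0 genes of these 3 lists were called, and 2 endothelial, 0 macrophage and 0 platelet markers had an unadjusted p under 0.05, beside 3.64% of all genes. The endothelial markers summed to 775 to 1201 CPM with Control antibody and 757 to 918 CPM with 3D6, with a correlation of 0.250 with summed globin within groups. All 4 atrial markers tested had a negative value too, with a median of -0.97, and with their score as a covariate the members lay between -0.03 for *Alas2* and -0.16 for *Hba-a1*. The part of the atrial, platelet, endothelial and macrophage markers in the globin values was not tested.

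**Figure D2:**
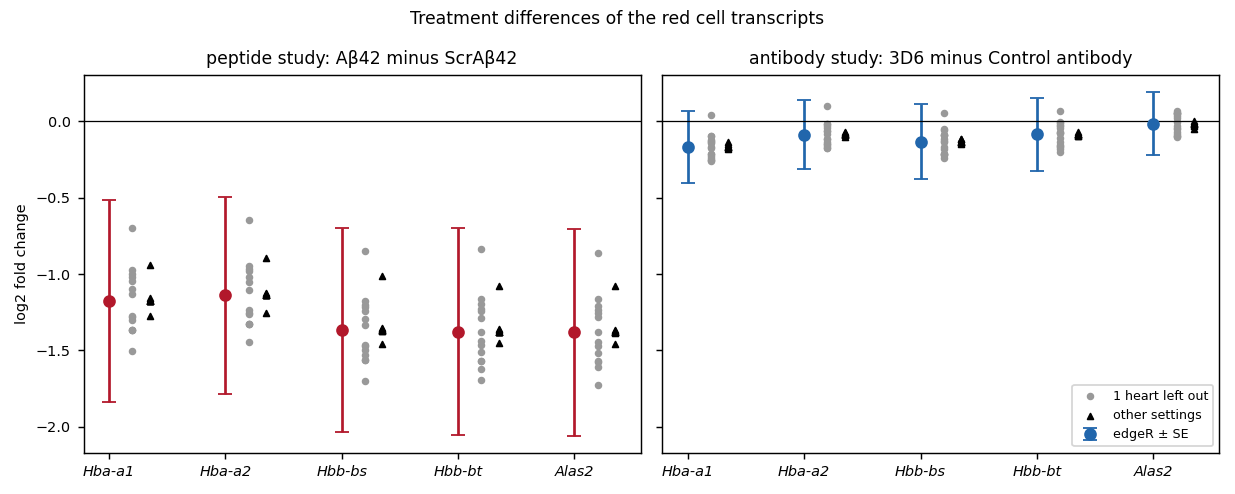
Log2 fold change of each transcript, treated minus control, in the peptide study (left) and the antibody study (right); the large point with its bar is the edgeR value ± SE, grey points are fits with 1 heart left out and triangles the other settings. The peptide values lie between -1.73 and -0.64 in the fits with 1 heart left out, and the antibody values lie within -0.26 and 0.10.

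Ratios among the transcripts varied far less than their levels from one peptide heart to another. Ratios were taken of CPM per kilobase of the main transcript, 699 bases for *Hba-a1*, 554 for *Hba-a2*, 628 for *Hbb-bs*, 703 for *Hbb-bt* and 2037 for *Alas2*. As annotated, the main transcripts of *Hba-a1* and *Hbb-bt* begin upstream of the RefSeq starts used for the promoter windows. They so include part of those windows, with the TATAA match next to the start. The ratios per length and the shares of shared runs depend on that annotation. Alpha to beta globin was 0.439 ± 0.0312 (SD, n = 7) with Aβ42 and 0.410 ± 0.0354 (SD, n = 7) with ScrAβ42, and over the 14 hearts it ran from 0.374 to 0.469 while *Hbb-bs* itself differed 27.4-fold. *Alas2* was 2.17% ± 0.224 (SD, n = 7) of summed globin with Aβ42 and 2.31% ± 0.210 (SD, n = 7) with ScrAβ42, from 1.89% to 2.56%. The coefficient of variation over the 14 hearts was 4.92% for *Hba-a1* to *Hba-a2*, 8.34% for alpha to beta globin, 9.90% for *Alas2* to globin and 12.4% for *Hbb-bs* to *Hbb-bt*, and the last of these ran from 4.90 to 7.71. *Hba-a1* to *Hba-a2* was 1.14 ± 0.0632 (SD, n = 7) with Aβ42 and 1.17 ± 0.0485 (SD, n = 7) with ScrAβ42. *Hbb-bs* to *Hbb-bt* was 6.16 ± 0.912 (SD, n = 7) and 5.82 ± 0.549 (SD, n = 7). In each of these the ranges of both groups overlapped.

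The same ratios sat elsewhere in the antibody study. Alpha to beta globin was 1.42 ± 0.0868 (SD, n = 8) in 3D6 hearts and 1.40 ± 0.116 (SD, n = 8) in controls, and *Alas2* was 0.367% ± 0.0518 (SD, n = 8) and 0.351% ± 0.0508 (SD, n = 8) of summed globin. *Hba-a1* to *Hba-a2* was 0.584 ± 0.0278 (SD, n = 8) in 3D6 hearts and 0.610 ± 0.0326 (SD, n = 8) in controls, and *Hbb-bs* to *Hbb-bt* was 8.18 ± 0.443 (SD, n = 8) and 8.301 ± 0.634 (SD, n = 8). *Alas2* to globin was the least even of the 4 ratios here, from 0.239% to 0.457%, with a coefficient of variation of 14.0% against 5.38% to 7.03% for the other ratios, and this 1.91-fold range was close to the 2.42-fold range of the *Alas2* level itself. No heart of either study fell within the range of the other for alpha to beta globin, *Alas2* to globin or *Hba-a1* to *Hba-a2*. Alpha to beta globin lay below 1 in every peptide heart and above 1 in every antibody heart, also when CPM was not divided by length, with group means of 0.406 to 0.434 against 1.34 to 1.35. The tables were made and normalised separately, 1 per gene and 1 per transcript, so the study, its mice and the making of the table cannot be told apart and no test was run across them.

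**Figure D3:**
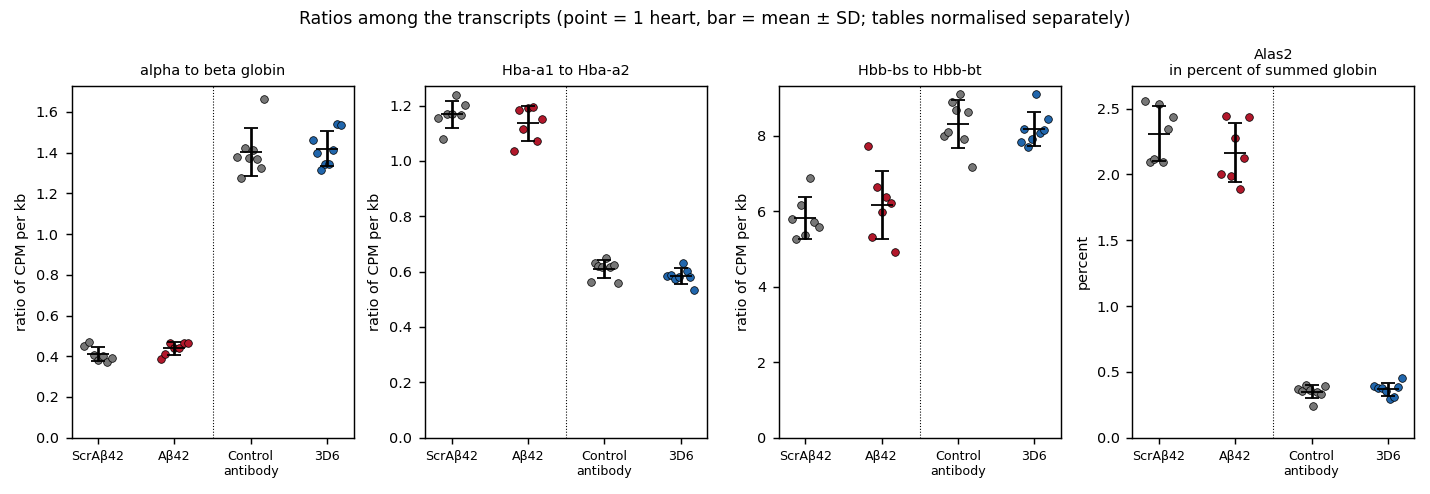
Ratios of CPM per kilobase (first 3 panels) and Alas2 in percent of summed globin (last panel), 1 point per heart with the group mean ± SD, peptide study left and antibody study right of the dotted line. Within a study the groups overlap, and alpha to beta globin is 0.374 to 0.469 in the peptide hearts and 1.28 to 1.66 in the antibody hearts.

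The antibody table gives each transcript of these genes, which the peptide table does not. *Hba-a2-201*, *Hbb-bs-201* and *Hbb-bt-201*, the protein-coding transcripts, took at least 99.0% of the estimated counts of their gene in every heart. *Hba-a1* differed, because *Hba-a1-202*, a transcript with a retained intron, took 10.5%, 15.8% and 23.1% of its counts in the lowest, median and highest Control antibody heart and 11.2%, 14.7% and 21.1% in the lowest, median and highest 3D6 heart. The retained intron transcript of its near copy, *Hba-a2-202*, took at most 0.591%. Bases shared by *Hba-a1-202* and *Hba-a2-202* were not measured, and the split between them is an estimate of the mapping program. The share of *Hba-a1-202* was highest in Control antibody mouse 22, the heart with the most globin, and its group means of 15.1% ± 3.59 (SD, n = 8) with 3D6 against 15.97% ± 4.03 (SD, n = 8) with Control antibody differed by less than either SD. *Alas2* was divided between the coding transcripts *Alas2-201*, with a median of 76.8% and a range of 31.3% to 100%, and *Alas2-202*, with a median of 18.1%. The lowest share of *Alas2-201* was in Control antibody mouse 22, on 147 *Alas2* counts. The highest was in Control antibody mouse 15, on 145 counts, and why the split varied was not tested.

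The genes whose pattern was most like that of the globins were ranked by the Pearson correlation of log2 CPM with log2 summed globin, group means subtracted, among the tested genes that are no members. In the peptide study *Ube2l6* (0.981), *Bpgm* (0.979), *Isg20* (0.967) and *Mkrn1* (0.953) were among the first 5, over 14 hearts. *Bpgm* makes 2,3-bisphosphoglycerate, which lowers the oxygen affinity of hemoglobin, and it lay at 31.9, 93.1 and 425 CPM for the lowest, median and highest ScrAβ42 heart and at 25.8, 43.8 and 124 CPM for the lowest, median and highest Aβ42 heart. *Ube2l6*, a conjugating enzyme for ISG15, lay at 14.3, 47.3 and 221 CPM with ScrAβ42 and at 12.2, 21.6 and 64.7 CPM with Aβ42. Both were highest in mouse ScrAβ42_3448. *Isg20*, an exonuclease, spanned 3.35 to 92.1 CPM and *Mkrn1*, a RING finger protein, 27.6 to 160 CPM. *Mb*, the haem protein of the cardiac muscle cell itself, spanned 4402 to 11414 CPM and had a correlation of -0.08 with summed globin.

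**Figure D4:**
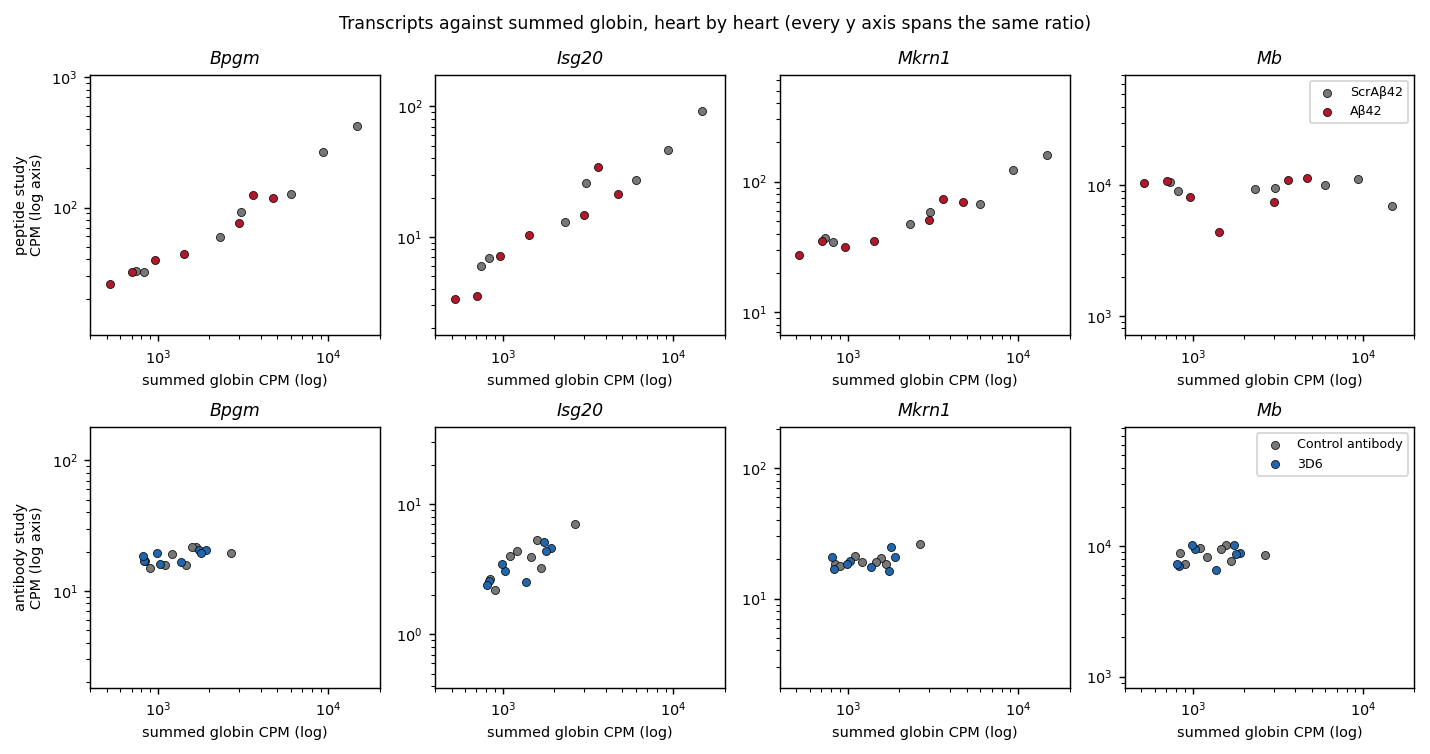
CPM of Bpgm, Isg20, Mkrn1 and Mb against summed globin CPM in each heart (both axes logarithmic), with the peptide study above and the antibody study below, coloured by group; each y axis spans the same ratio. In the peptide hearts the first 3 genes climb with summed globin, with correlations of 0.979, 0.967 and 0.953 within groups, and Mb does not, at -0.08.

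In the antibody study the first 5 were *Rgs3* (0.903), *Tspo* (0.892), *Thap3* (0.888), *Gm28875* (0.880) and *Hnrnpl* (0.878), over 16 hearts, and none of them is on any of the lists used here. *Rgs3*, a regulator of G protein signalling, lay at 30.2, 40.1 and 63.1 CPM for the lowest, median and highest Control antibody heart and at 30.9, 34.7 and 40.7 CPM for the lowest, median and highest 3D6 heart. *Bpgm* spanned 15.0 to 21.8 CPM there, with a correlation of 0.569. The number of genes past 0.8 differed too, with 24 above 0.8 and 0 below -0.8 of 11980 in the peptide study and 88 above and 165 below of 12269 in the antibody study. These counts are a description, since genes of 1 library are not independent.

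Other features of the libraries moved with the globins in the antibody study. The share of counts on the mitochondrial chromosome ran from 25.9% to 37.7% with Control antibody and from 30.6% to 37.8% with 3D6, and its log2 had a correlation of -0.855 with log2 summed globin within groups over 16 hearts. Control antibody mouse 22 had the lowest share and the most globin. In the peptide study the share ran from 12.9% to 22.2%, with a correlation of -0.415 over 14 hearts. Mouse ScrAβ42_3448, the heart with the most globin, had 13.8%, the lowest share of its group. The share of 12.9% was in mouse Aβ42_3457, where summed globin was 1427 CPM against 14781 CPM in mouse ScrAβ42_3448. The 8 macrophage markers, of which *Lyz2* had 39.5 to 79.2 CPM, *Csf1r* up to 32.4 CPM and *Cd68* 2.07 to 8.40 CPM, summed to 120 to 252 CPM in the antibody hearts with a correlation of 0.632, and to 219 to 551 CPM in the peptide hearts with one of 0.180. The TMM factor of a library had a correlation of 0.687 with summed globin in the antibody study and of 0.101 in the peptide study. The part of these features in the globin values was not tested.

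**Figure D5:**
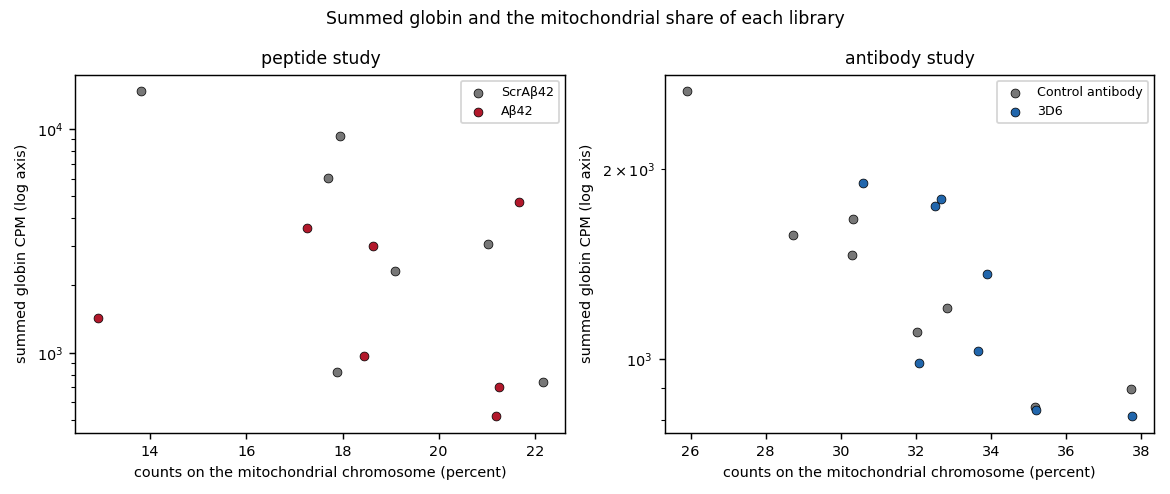
Summed CPM of the 4 adult globins (log axis) against the percent of counts on the mitochondrial chromosome in each library, peptide study left and antibody study right, coloured by group. In the antibody study hearts with a lower mitochondrial share have more globin (correlation -0.855 within groups), and in the peptide study the correlation is -0.415.

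Markers of other blood cells were low beside the globins. Platelet markers, *Pf4* and *Ppbp* among them, had a count for 8 of 8 genes in both studies and summed to 10.9 to 27.2 CPM with ScrAβ42, 11.3 to 26.3 CPM with Aβ42, 6.52 to 25.9 CPM with Control antibody and 6.32 to 35.2 CPM with 3D6. Neutrophil markers summed to at most 36.5 CPM in the peptide hearts, where *S100a8* and *S100a9* reached 2.80 and 3.28 CPM and *Lcn2*, which other cells can also make, reached 30.7 CPM. In the antibody hearts they summed to at most 5.83 CPM, and *Camp* was at 0 in every heart. Lymphocyte markers, *Cd79a* and *Cd79b* among them, summed to at most 4.38 and 5.26 CPM in the peptide and antibody hearts. Within groups the correlation with summed globin in the peptide study was 0.312 for platelet, 0.317 for neutrophil and 0.0309 for lymphocyte markers, and in the antibody study 0.484, 0.506 and 0.368. The part of these cells in the globin values was not tested.

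Beyond the members, 80 genes on 8 lists were followed, most of them of the red cell programme. The lists also hold 11 genes of hemoglobin and haem clearance, which act largely in other cells, and 3 haem proteins of muscle and other tissue, *Mb* among them, so the counts over all lists are not of red cell genes alone. The embryonic and minor globins, 7 genes, summed to at most 2.84 CPM in any peptide heart and 0.300 CPM in any antibody heart, and none reached the filter. The list of erythroid transcription factors holds 9 genes, among them *Epor*, which encodes a receptor and not a transcription factor. On this list *Gata1* and *Klf1*, which switch on globin genes in erythroblasts, stayed at or under 0.334 and 0.238 CPM in the peptide hearts. In the antibody hearts they stayed at or under 0.284 and 0.424 CPM. Others of that list were higher, with *Tal1* at 5.00 to 10.01 CPM, *Lmo2* at 9.90 to 23.7 CPM and *Zfpm1* at 17.01 to 25.24 CPM in the peptide hearts. The list summed to 39.6 to 61.6 CPM there, with a correlation of 0.226 with summed globin, and to 48.9 to 68.8 CPM in the antibody hearts, with one of 0.327. *Slc4a1*, the band 3 anion exchanger, spanned 1.19 to 39.9 CPM in the peptide hearts with a correlation of 0.909, and it was highest where globin was highest. In the antibody hearts *Slc4a1* did not pass 1.27 CPM.

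Of the 54 listed genes tested in the peptide study, 10 had a correlation above 0.8 with summed globin, 5 of them among the 8 tested genes of reticulocyte maturation, the clearing of organelles and proteins from young red cells. In the antibody study 1 of 53 was above 0.8, *Isg20*. *Abcb10*, of haem synthesis and iron import, lay on the other side there, at -0.873. Among the 10 of the peptide study, picked out after their values were seen, were *Bpgm*, *Isg20*, *Mkrn1*, *Slc4a1*, *Car2*, *Slc25a37*, *Bnip3l* and *Ube2o*. Other genes of the haem pathway followed the globins less closely than *Alas2*, which had a correlation of 0.996. The summed level of the 15 genes of haem synthesis and iron import had one of 0.531 over the peptide hearts and -0.590 over the antibody hearts. In the same order, red cell membrane had 0.825 and -0.581, red cell enzymes 0.604 and -0.610, and reticulocyte maturation 0.914 and -0.199. Hemoglobin and haem clearance had 0.421 and 0.534, and the haem proteins of muscle and other tissue -0.077 and 0.238. *Fech*, which inserts iron to make haem, spanned 121 to 260 CPM in the peptide hearts with a correlation of 0.657. *Alas1*, the form of the same enzyme found in most tissues, lay between 99.2 and 273 CPM in the peptide hearts, with a correlation of 0.291. Of the 15 genes 1 passed 0.8 in the peptide study, *Slc25a37*, the mitochondrial iron importer of red cells, which spanned 18.5 to 55.6 CPM.

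In the Aβ42 comparison 0 of the 54 listed genes were called by edgeR over all genes, beside 0% of all genes tested, DESeq2 and limma-voom called 0 of them as well, and 42 were lower and 12 higher, with a median log2 fold change of -0.08 against 0.00 over all genes. At an unadjusted p under 0.05 the count was 1 of 54, lower with Aβ42, beside 6.51% of all genes and 2.91% that were lower with Aβ42. That gene was *Ube2o*, a ubiquitin-conjugating enzyme that clears proteins from reticulocytes, at 47.4, 66.6 and 111 CPM for the lowest, median and highest ScrAβ42 heart and 36.3, 49.3 and 70.8 CPM for the lowest, median and highest Aβ42 heart. Its log2 fold change was -0.49 (SE 0.19), with an unadjusted p of 0.0184 and an adjusted p of 0.703 by edgeR. All 8 tested genes of reticulocyte maturation had a negative value, with a median of -0.34, and they include genes that follow the globins from heart to heart, so this is not a separate observation. Other lists had medians of -0.06 for haem synthesis and iron import, -0.05 for red cell membrane, -0.17 for red cell enzymes and -0.03 for hemoglobin and haem clearance.

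In the 3D6 comparison 0 of the 53 listed genes were called by edgeR, beside 0% of all genes, DESeq2 and limma-voom also called 0, and 31 were lower and 22 higher, with a median log2 fold change of -0.03 against -0.01 over all genes. There were 2 of 53 with an unadjusted p under 0.05, both higher with 3D6, beside 3.64% of all genes and 1.32% that were higher with 3D6. Of these *Slc40a1*, the iron exporter ferroportin, which is on the haem clearance list, lay at 10.5, 13.9 and 21.8 CPM with Control antibody and at 11.7, 19.1 and 28.0 CPM with 3D6, a log2 fold change of 0.39 (SE 0.18). The groups overlapped, and the adjusted p by edgeR was 0.946. *Slc40a1* did not follow the globins, with a correlation of -0.295, and in the peptide study its log2 fold change was -0.02 (SE 0.08). By list, the median with 3D6 was 0.08 for red cell membrane (6 of 8 higher) and -0.19 for erythroid transcription factors (5 of 5 lower). Over all genes tested, 5815 were higher and 6459 lower with 3D6. The 5 were *Tal1*, *Lmo2*, *Zfpm1*, *Bcl11a* and *Epor*, while *Gata1*, *Klf1*, *Gfi1b* and *Nfe2* did not reach the filter. The median was 0.004 for haem synthesis and iron import, -0.03 for red cell enzymes and -0.06 for reticulocyte maturation. Hemoglobin and haem clearance had -0.03, and the haem proteins of muscle and other tissue -0.10.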

How the data were processed

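Left ventricular total RNA (TruSeq Stranded Total RNA) was sequenced, and the authors mapped trimmed reads with Salmon to GENCODE 24 transcripts of GRCm38, per the methods and labels. The peptide table, as deposited, holds whole-number raw counts by Ensembl gene, and how transcripts were summed to genes is not given in the sources used here. The antibody table, as the authors made it, holds estimated counts by transcript, which were summed to genes here through GENCODE vM21 and rounded. That release lists 99.5% of the peptide rows and 99.2% of the antibody rows, and 0.381% of the antibody counts fell on rows it does not list. Of the peptide columns, 1 fits no labelled sample and was left out.

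The studies were fitted apart, in edgeR 4.0.16 (R 4.3.3). A gene needed a mean count of 10 or more over the hearts of the study, TMM factors were applied, and the quasi-likelihood test, two-sided, was adjusted by the Benjamini-Hochberg method over all genes tested at 0.05. The standard error is the size of the log2 fold change divided by the square root of F. Log2 CPM used a prior count of 2. Nothing in the labels ties hearts of different groups together. Each p-value sets the difference between the groups against the spread between mice within them. Counting of the main transcript's length, promoter motifs and ratios used Python 3.11.15.

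The members and the gene lists were chosen with earlier results of these data known. Named are the 5 members, the genes of the red cell and haem lists with an unadjusted p under 0.05 in either study, the 5 genes per study most like summed globin, and the first 2 genes of each marker list. Other listed genes named in the text were chosen after their values were seen. Some genes that this rule names are not reported here. Of the 80 listed genes *Ahsp* was not matched in the annotation. The other settings tried were limma-voom (limma 3.58.1), DESeq2 1.42.0, a robust fit, other size factors, other filters, the atrial marker score as a covariate and leaving out each heart, and, chosen after seeing the data, ratios not divided by length.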

Additional observations from a re-analysis of the deposited data

Results flagged for a closer look

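Of 36 sets of values, each of 1 transcript or ratio in 1 group, 4 held a value whose gap to the nearest other heart was a larger share of the group's range than Dixon's 95% limit. Chance passes that limit in about 1 of 20 groups, and since the genes were chosen with these values known, the 4 are listed as a description and not as a test. Control antibody mouse 22 had 691 CPM of *Hba-a1* and 844 CPM of *Hba-a2*, above the other 7 hearts of its group, and these near copies share reads, so they are not separate observations. In the same heart *Alas2* was 0.239% of summed globin per length, the lowest of its group. Control antibody mouse 8 had an alpha to beta globin ratio of 1.66 per length, the highest of its group. In the peptide study mouse ScrAβ42_3448, the highest heart for all 5 genes, did not pass that limit for any of them.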

How the results depend on the processing

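In the peptide study each member kept a lower value with Aβ42 under all 9 other settings and without any 1 of the 14 hearts. The number of genes called rose from 0 to 12 with DESeq2 and ranged from 0 to 3 with 1 heart left out, with 3 without mouse Aβ42_3452 and 1 without mouse ScrAβ42_3448, and the cause was not tested. In the antibody study the sign of the members kept under the 9 other settings but not with 1 heart left out. Leaving out 1 heart gave log2 fold changes of -0.26 to 0.039 for *Hba-a1*, -0.18 to 0.10 for *Hba-a2*, -0.24 to 0.056 for *Hbb-bs*, -0.20 to 0.070 for *Hbb-bt* and -0.10 to 0.064 for *Alas2*. For the globins the sign turned without Control antibody mouse 22 and for *Alas2* in 7 of 16 fits, and the cause was not tested. No gene of the red cell and haem lists was called in any fit of either study. Ratio means moved by less than 1 SD with summed counts or with 1 heart left out, while without division by length *Alas2* in percent of summed globin was 6.93% and 7.39% in the peptide groups and 1.15% and 1.21% in the antibody groups. Without that division *Hba-a1* to *Hba-a2* was 1.43 and 1.47 in the peptide groups and 0.737 and 0.769 in the antibody groups, and *Hbb-bs* to *Hbb-bt* was 5.20 and 5.50 and then 7.30 and 7.42. No paired analysis was possible because the groups share no mouse numbers.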
